A study of Mus musculus with 10 samples.

Results

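The genes described here are the early growth response factors Egr1, Egr2, Egr3 and Egr4, the orphan nuclear receptors Nr4a1, Nr4a2 and Nr4a3, and the activity-induced genes Arc, Ier2 and Dusp1. They were chosen by name, with every probe set annotated to each symbol, which gave 19 probe sets for 10 genes out of 18193 genes with a probe set of their own. Of these members, 7 were bright enough to be tested among 11405 genes. Egr3, Egr4 and Arc were not, and their signals are given without a call.

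Transcript levels were measured on 10 Affymetrix whole-genome mouse arrays of primary cultures of granule cell precursors from the cerebellum, which divide after birth and later become granule neurons. The cells came from mouse pups at postnatal days 5 to 7. All cultures, the untreated ones included, were grown for 24 hours with 20 mM KCl and 10% fetal calf serum. The groups were untreated wild type (replicates 1, 3 and 5), untreated Bmi1 knockout (2, 4 and 6), wild type given sonic hedgehog (Shh) for 24 hours (7 and 9), and Bmi1 knockout given Shh for 24 hours (8 and 10). The Shh concentration is labelled as 3 mg/ml. Whether untreated cultures were harvested at the same age as treated ones is not stated, so Shh and time in culture cannot be told apart. The number of animals behind a culture, the strain and the deleted part of Bmi1 are not given in the sources used here. Both Bmi1 probe sets overlapped between genotypes (1417493_at at 3673 to 4515 in wild type and 3416 to 3904 in knockout, 1448733_at at 1731 to 2555 and 1587 to 2219). They do not check the labels, because which exons were deleted is not known from these sources. The series title names the part played by Bmi1 in the response to Shh as the question.

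Egr and Nr4a genes are immediate early genes: their transcription starts within minutes of a stimulus and needs no new protein. Serum acts on many of them through serum response factor at CArG boxes, and depolarisation with calcium entry acts through the factor CREB at cyclic AMP response elements. In neurons their products carry activity into slower programmes, Egr proteins as zinc finger activators, Nr4a proteins as nuclear receptors that act without a known natural ligand, and Arc at the synapse, where it promotes removal of AMPA receptors.

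Promoters of Egr2, the Nr4a genes and Dusp1 are shown for their response elements. Of these, only Egr2 was called lower with Shh, Nr4a2 and Nr4a3 were called higher, and Nr4a1 and Dusp1 were not called. They are RefSeq sequences of GRCm38.p6, read from the 250 bases before an annotated start, and 6 of the 9 members looked up were matched. The Nr4a1 and Nr4a3 stretches are the 30 bases of their window with the most TGACG matches. That of Egr2 was cut from the first window that held both a CArG box and TGACG. The windows of Nr4a2 and Dusp1 are printed whole, so the stretches were not chosen alike. Capitals mark TGACG on either strand (CGTCA when read on the other), which opens the cyclic AMP response element TGACGTCA, and, in Egr2, a CArG box (CC, then 6 bases of A or T, then GG).
Egr2, chr10:67537795-67537824 (plus strand): gtCCATATATGGgcagcgaCGTCAcgggta
Nr4a1, chr15:101266608-101266637 (plus strand): ccctgCGTCAatggaaccccgcgtgCGTCA
Nr4a3, chr4:48045067-48045096 (plus strand): aggagggTGACGtagcgtcccatgtCGTCA
Nr4a2, chr2:57124004-57124253 (minus strand): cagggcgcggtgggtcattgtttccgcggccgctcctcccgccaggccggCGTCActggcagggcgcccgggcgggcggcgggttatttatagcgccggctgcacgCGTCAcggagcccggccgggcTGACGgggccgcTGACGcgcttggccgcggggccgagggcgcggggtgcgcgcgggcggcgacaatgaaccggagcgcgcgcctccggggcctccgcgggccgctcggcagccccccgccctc
Dusp1, chr17:26508473-26508722 (minus strand): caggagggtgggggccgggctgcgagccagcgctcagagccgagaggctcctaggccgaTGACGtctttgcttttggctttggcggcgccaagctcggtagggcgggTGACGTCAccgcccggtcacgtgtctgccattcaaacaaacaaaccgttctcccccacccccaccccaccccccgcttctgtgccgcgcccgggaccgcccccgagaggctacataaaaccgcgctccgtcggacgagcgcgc
The Egr2 stretch lies 74 to 45 bases before the start of 1 of its 5 windows. The Nr4a1 and Nr4a3 stretches lie 238 to 209 bases before the start of their only window. The annotated span of the gene begins at base 101253902 for Nr4a1 and 48045078 for Nr4a3, so neither stretch lies wholly before its gene. TGACG occurred 4 times before each of Nr4a1, Nr4a2 and Nr4a3, 3 times before Dusp1 (2 of them, 1 on each strand, within a whole TGACGTCA) and 2 times before Egr4. Of the 5 windows of Egr2, 3 held it and 4 held a CArG box. The 3 windows with TGACG overlap, and their TGACG sites and CArG box are the same bases, so these are not counts of separate sites. Among all 32851 promoters of this length, 17.8% held TGACG, 1.55% held TGACGTCA and 1.47% held a CArG box. No TGAGTCA, the AP-1 site, was found in the windows of these 6 members, against 4.46% of all promoters. The Egr site GCGTGGGCG (0.536% of all) and the Nr4a monomer site AAAGGTCA (1.34%) were not found there either. TATAAA was found before Nr4a2 alone of the 6 (12.4% of all). The Sp1 box GGGCGG was found in windows of Egr2, Nr4a1, Nr4a2, Nr4a3 and Dusp1 (32.7% of all). These are matches of letters in a window, not measured binding.

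Shh-treated cultures held far less Egr1, Egr2 and Ier2 RNA than untreated ones and more Nr4a2 and Nr4a3 RNA, in both genotypes. In wild type, 5 of the 7 tested members passed the limma test at an adjusted p of 0.05, where 33.8% of all 11405 genes did. In knockout the same 5 passed, where 28% of all genes did. The members that were lower numbered 3 in each genotype (Egr1, Egr2 and Ier2), beside 19.8% of all genes called lower in wild type and 17% in knockout. The members that were higher numbered 2 (Nr4a2 and Nr4a3), beside 14% of all genes called higher in wild type and 11% in knockout. The brightness filter took the mean of all 10 arrays. It kept Nr4a3, which was bright mainly with Shh, and left out Egr3, which was bright mainly without it. The members' median difference on the log2 scale was -0.99 in wild type and -0.60 in knockout, and that of all tested genes was -0.015 and -0.0050. In such bulk cultures fewer cells of a type and less RNA per cell cannot be told apart.

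**Figure D1:**
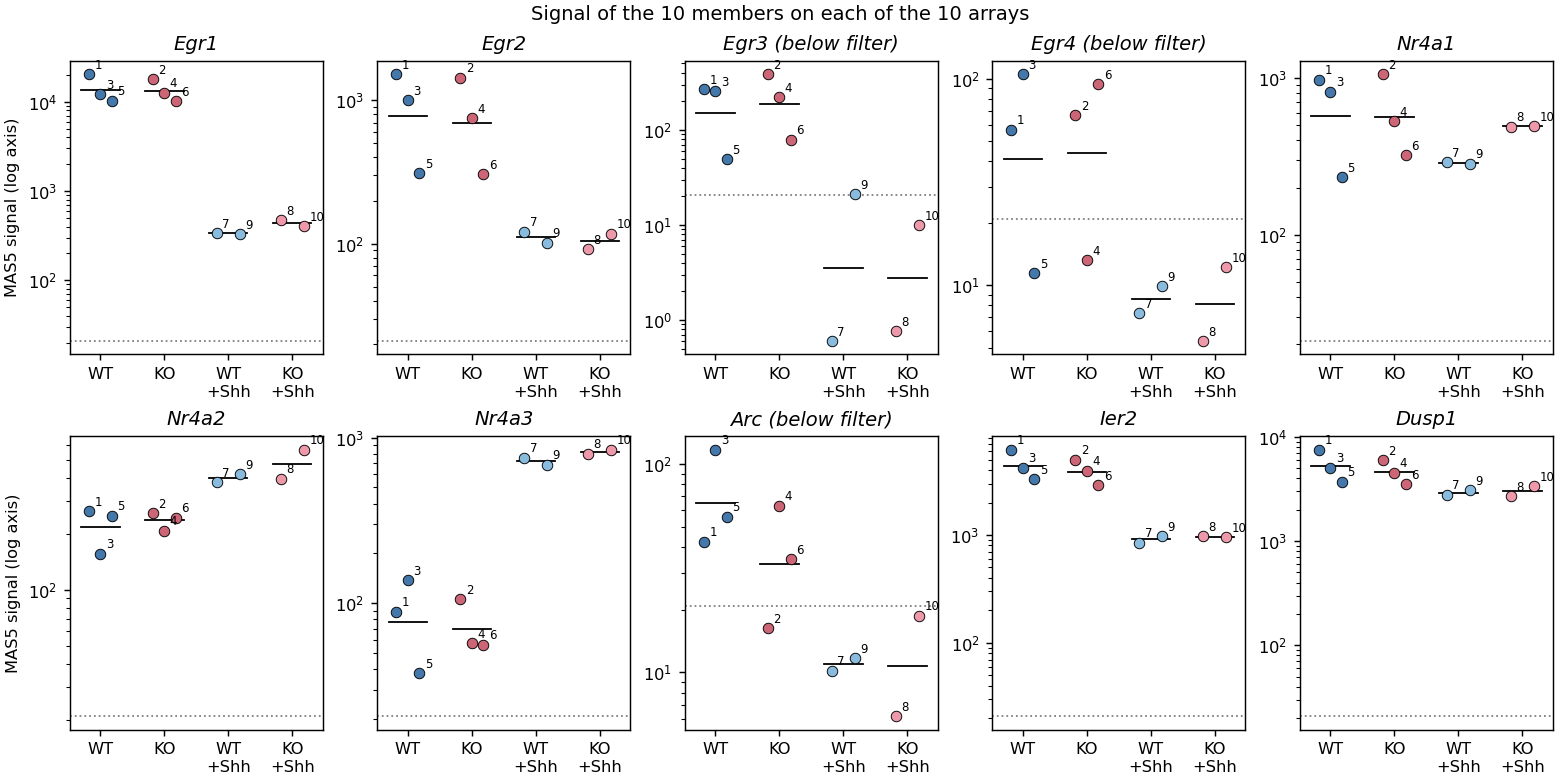
Signal of each member's brightest probe set (vertical log axes, linear MAS5 signal, each panel with its own range) on each array, by group and labelled with the replicate number; bars are geometric means of the signals as deposited and the dotted line is the floor of 20.9. Egr1 lies at 10086 to 20194 on the 6 untreated arrays and at 331 to 468 on the 4 Shh-treated ones, while Nr4a3 lies at 37.8 to 138 and 686 to 847.

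Egr1, the zinc finger factor that is a common readout of serum and growth factor signalling, had the widest gap between groups of the tested members. Its signal in untreated wild type was 20194, 12199 and 10247 on replicates 1, 3 and 5, and in untreated knockout 17740.2, 12641 and 10086 on replicates 2, 4 and 6. With Shh it was 339.6 and 331 in wild type and 468 and 406 in knockout. Every treated array lay below every untreated one, as they did for 19.5% of all tested genes. The lowest untreated signal was 21.5 times the highest treated one. By limma, Egr1 was 40.6-fold lower with Shh in wild type (log2 difference -5.34, SE 0.29, adjusted p = 5.03e-06) and 30.1-fold lower in knockout (-4.91, SE 0.29, adjusted p = 1.16e-05). Ranked by log2 difference, Egr1 was the gene with rank 4 from the lowest of 11405 in wild type and rank 7 in knockout.

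Egr2, known as Krox20 and required for hindbrain segments and for myelination by Schwann cells, gave the same direction on both of its probe sets. On the brighter one (1427683_at) the untreated signals were 1516, 998 and 311 in wild type and 1435, 752 and 306 in knockout, and the Shh-treated ones were 121 and 102 in wild type and 91.8 and 118 in knockout. Replicates 5 and 6 were far below the other untreated arrays but still above all treated ones, by 2.53 times at the closest. The fall was 7.01-fold in wild type (-2.81, SE 0.71, adjusted p = 0.0145) and 6.65-fold in knockout (-2.73, SE 0.71, adjusted p = 0.0196), by limma. On the other probe set (1427682_a_at) the untreated signals ran from 144 to 832 and the treated ones from 31.6 to 89.3. There the log2 difference was -2.99 in wild type (adjusted p = 0.0381) and -3.20 in knockout (adjusted p = 0.0353), from the limma fit over 22519 probe sets. The call for Egr2 was lost without wild type replicate 7 (adjusted p = 0.0567) or 9 (0.0795), and in knockout without replicate 2 (0.0520), 4 (0.0505), 8 (0.106) or 10 (0.0679), with log2 differences between -2.94 and -2.21. Without the filter on dim genes it was lost in both (adjusted p = 0.0508 in wild type and 0.0635 in knockout).

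Egr3, which muscle spindles need to form, was too dim over all arrays to be tested. Its mean log2 signal was 6.19, below the filter of 6.25, although the untreated means were 7.22 in wild type and 7.56 in knockout. On its brighter probe set (1436329_at) the untreated signals were 267, 255 and 48.9 in wild type and 384, 222 and 78.9 in knockout. With Shh they were 0.600 and 21.1 in wild type and 0.768 and 9.99 in knockout, so 3 of the 4 treated arrays lay under the floor of 20.9 to which low signals were raised. The groups did not overlap. The difference is therefore a bound, at least 7.11-fold lower in wild type and at least 9.03-fold lower in knockout. In a fit without the filter on dim genes it did not pass (adjusted p = 0.0678 and 0.0541 by limma), and in that fit 12.4% of 18193 genes were called lower in wild type and 10.4% in knockout. The other Egr3 probe set (1421486_at) overlapped between groups, at 35.8 to 95.3 untreated and 21.4 to 65.2 with Shh.

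Egr4, the fourth factor of the family, lay near or below the floor on many arrays. Its signals were 56.7, 105 and 11.5 in untreated wild type and 66.6, 13.2 and 94.2 in untreated knockout, and 5.37 to 12.2 on the 4 treated arrays, all of them under the floor. The untreated and treated arrays overlapped. With low signals raised to the floor, Egr4 was 2.39-fold lower in wild type and 2.43-fold lower in knockout. The limma fit without the filter gave adjusted p = 0.343 and 0.362. These folds are not bounds, because 1 untreated array of each genotype was raised to the floor too.

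The Nr4a receptors went different ways. Nr4a1 (Nur77), best known for its part in the death of self-reactive thymocytes, had untreated signals of 974, 818 and 232 in wild type and 1055, 531 and 321 in knockout. With Shh they were 290.3 and 285 in wild type and 489 and 494 in knockout. Treated signals lay within the untreated range, and untreated arrays of the same genotype differed more than the groups did. The log2 difference with Shh was -0.99 in wild type (SE 0.61, 95% interval -2.37 to 0.40, adjusted p = 0.247) and -0.20 in knockout (SE 0.61, -1.58 to 1.18, adjusted p = 0.837) by limma. Replicate 5 decided the first of these. Without it the wild type difference was -1.63 (SE 0.44, adjusted p = 0.0267), and without both replicates 5 and 6, left out after the data were seen, it was -1.63 (SE 0.29, adjusted p = 0.00759). The knockout difference changed its sign without replicate 2 (0.25, adjusted p = 0.796).

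Nr4a2 (Nurr1), the receptor that midbrain dopamine neurons need, was higher with Shh. On the probe set that represents it (1447863_s_at) the untreated signals were 264, 156 and 249.8 in wild type and 258, 208 and 244 in knockout, and the treated ones 377 and 419 in wild type and 396 and 567 in knockout. Every treated array lay above every untreated one, as they did for 15.8% of all tested genes. The rise was 1.83-fold in wild type (0.87, SE 0.24, adjusted p = 0.0202) and 2.01-fold in knockout (1.01, SE 0.24, adjusted p = 0.0126), by limma. The wild type call was lost without replicate 7 (0.95, adjusted p = 0.0629) or 9 (0.79, adjusted p = 0.113) and without the filter on dim genes (adjusted p = 0.0561), and the knockout call without replicate 10 (0.75, adjusted p = 0.105). Of its other probe sets, 1455034_at rose by 1.34 and 1.62 on the log2 scale in wild type and knockout (adjusted p = 0.00206 and 0.00114), and 1450750_a_at by 0.85 and 0.84 (adjusted p = 0.0132 and 0.0181). On 1450749_a_at the differences were 0.67 and 0.79 and did not pass (adjusted p = 0.123 and 0.0868), and the other probe sets were too dim to test. On 1433422_at the untreated signals were 35.8, 63.0 and 48.7 in wild type and 94.1, 36.0 and 54.5 in knockout, against 27.9 and 26.5 in treated wild type and 74.8 and 56.4 in treated knockout. There the treated wild type arrays lay below all untreated wild type arrays, opposite to the rise, and the knockout arrays overlapped. On 1433423_at, at 3.23 to 67.7 untreated and 6.23 to 54.2 with Shh, the groups overlapped.

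Nr4a3 (Nor1), the third receptor, had the widest rise of the members. The signals of 1438796_at were 89.1, 138 and 37.8 in untreated wild type and 106, 57.5 and 56.4 in untreated knockout, against 756 and 686 in treated wild type and 798 and 847 in treated knockout. The lowest treated signal was 4.96 times the highest untreated one. Nr4a3 rose 9.29-fold in wild type (3.22, SE 0.47, adjusted p = 0.000981) and 11.8-fold in knockout (3.55, SE 0.47, adjusted p = 0.000736) by limma, rank 14 and rank 5 from the highest of 11405 genes. Its untreated log2 means, 6.28 in wild type and 6.13 in knockout, lay near the filter of 6.25, so it was tested mainly through the treated arrays. In the limma fit without the filter it passed too (adjusted p = 0.00706 in wild type and 0.00611 in knockout). Its other probe sets, 1421079_at and 1421080_at, were at 1.72 to 40.5 and at 8.65 to 22.4 over all 10 arrays and overlapped between groups, so the rise was seen on 1 of its 3 probe sets.

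Among the remaining members, Ier2, a nuclear protein made within the first wave of the response, was at 6205, 4202 and 3273 in untreated wild type and 4987, 3929 and 2881 in untreated knockout. With Shh its signals were 847 and 975 in wild type and 977 and 952 in knockout. The lowest untreated signal was 2.95 times the highest treated one. It fell 4.84-fold in wild type (-2.28, SE 0.28, adjusted p = 0.000361) and 3.98-fold in knockout (-1.99, SE 0.28, adjusted p = 0.000945) by limma.

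Dusp1, the phosphatase that switches off p38, JNK and ERK kinases, was at 7569, 5048 and 3712 in untreated wild type and 5949.6, 4548 and 3521 in untreated knockout, and at 2786 and 3073 in treated wild type and 2701 and 3374 in treated knockout. Treated arrays lay below all untreated ones, as they did for 19.5% of all tested genes, here by a margin of 1.04 times at the closest. The difference did not pass in wild type (-0.83, SE 0.29, 95% interval -1.50 to -0.17, adjusted p = 0.0554) or in knockout (-0.60, SE 0.29, -1.26 to 0.067, adjusted p = 0.165) by limma. With consecutive replicate numbers as a block the wild type difference passed (adjusted p = 0.0380), as it did without replicate 2 (0.0489), 5 (-1.08, adjusted p = 0.0197) or 6 (0.0497). In knockout it passed without replicates 1 and 6 together (-0.79, adjusted p = 0.0345).

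Arc was dim throughout. Its signals were 42.4, 118 and 55.9 in untreated wild type, 16.3, 63.1 and 34.9 in untreated knockout, and 6.16 to 18.7 on the 4 treated arrays, all under the floor. Treated and untreated arrays overlapped in knockout and not in wild type. Arc was at least 3.13-fold lower with Shh in wild type. In knockout it was 1.71-fold lower, which is not a bound, because 1 untreated array was raised to the floor too. Neither difference passed in the fit without the filter (adjusted p = 0.0775 and 0.420 by limma).

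**Figure D2:**
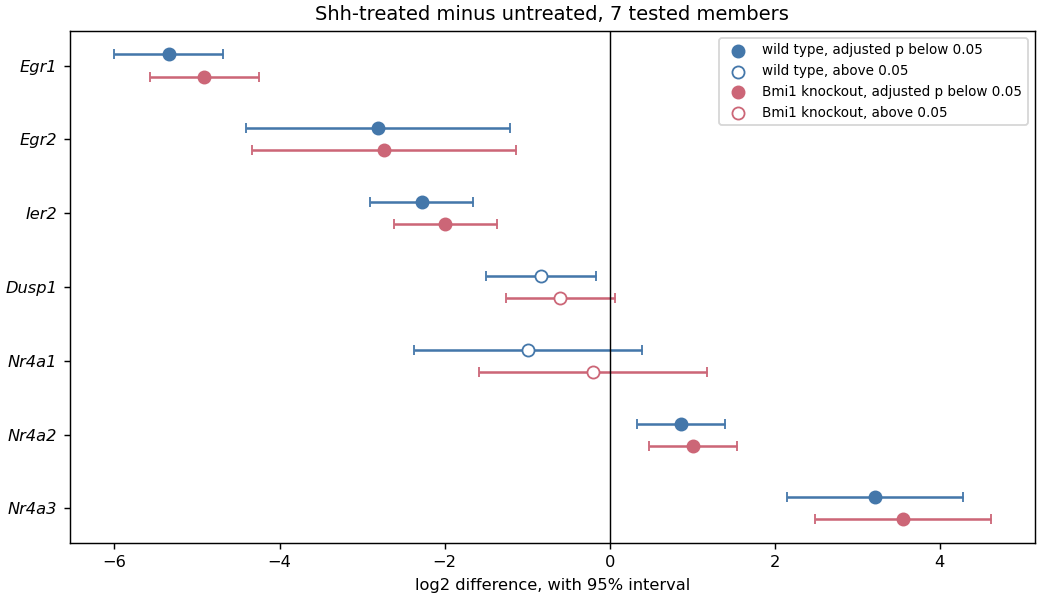
Log2 difference between Shh-treated and untreated cultures (horizontal axis) for the 7 tested members, with the 95% interval of the limma fit, in wild type (blue) and Bmi1 knockout (red); filled points have an adjusted p below 0.05. Egr1, Egr2 and Ier2 lie left of 0 and Nr4a2 and Nr4a3 right of it in both genotypes, and the points of the genotypes lie within each other's intervals.

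How the arrays were scaled touches these differences. Treated arrays had a lower median signal (66.6 to 72.1) than untreated ones (84.4 to 90.9) although all had a 2% trimmed mean of 500. Scaling all arrays to a common median moved the median difference of all genes to 0.33 in wild type and 0.29 in knockout, and lower calls made up 19.4% and 20.5% of all calls instead of 58.7% and 60.6%. The same 5 members were called under that scaling in both genotypes, with Egr1 at -5.00 and -4.62 and Nr4a3 at 3.56 and 3.85. The knockout difference of Nr4a1 turned to 0.093 there, and those of Dusp1 were -0.49 and -0.31. Under quantile normalization, where lower calls were 51.2% and 54% of all calls, the same 5 members were called again.

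Untreated arrays differed among themselves in the members. Replicate 5 had the lowest signal of the untreated wild type arrays, and replicate 6 the lowest of the untreated knockout arrays, for 6 of the 7 tested members, Nr4a2 being the exception. Of all tested genes, 12.1% were lowest on both. The widest spread over the 6 untreated arrays was 4.95 times for Egr2 and 4.54 times for Nr4a1, against 2.00 times for Egr1 and 1.69 times for Nr4a2. Over the 4 treated arrays the spread of the probe set that represents a tested gene was at most 1.73 times, and that was Nr4a1. Replicate 6 also had the highest 18S ribosomal signal of all arrays (6301, against 2030 on replicate 1 and 219 to 649 on the others), while replicate 5 was at 481. Without replicates 1 and 6 together, 5 members were called for Shh in wild type and 6 in knockout.

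Loss of Bmi1 left no member past the threshold. In untreated cultures 0 of the 7 were called, where 0.377% of all genes were. With Shh 0 were called, where 0.728% of all genes were. In the average of both genotype differences 0 were called, against 1.54% of all genes. At an unadjusted p of 0.05 the limma counts of members in the fit without a block were also 0 in these comparisons and in the interaction. These counts take the 1 probe set that represents each gene. In the fit over probe sets, the average genotype difference of the Nr4a2 probe set 1455034_at was 0.54 (unadjusted p = 0.00531, adjusted p = 0.178 by limma). That of 1450750_a_at was 0.33 (unadjusted p = 0.0420, adjusted p = 0.402 by limma). In untreated cultures the arrays of the genotypes overlapped for all 19 probe sets. Overlap was usual, because of all tested genes 5.73% lay wholly lower in knockout and 7.62% wholly higher. Within the 3 untreated pairs of consecutive replicate numbers, the knockout minus wild type log2 difference had 1 sign for Dusp1 (-0.35, -0.15 and -0.076), Ier2 (-0.32, -0.097 and -0.18), the Egr2 probe set 1427683_at (-0.079, -0.41 and -0.023), Arc (-1.02, -0.90 and -0.68, the first with the knockout array raised to the floor), the Egr3 probe set 1421486_at (0.42, 0.64 and 0.54) and the Nr4a2 probe set 1450750_a_at (0.078, 0.076 and 0.88). The other probe sets had mixed signs or a pair with both arrays at the floor. Mixed were, for example, the other Egr2 probe set (0.023, -0.10 and -0.079) and the brighter one of Egr3 (0.52, -0.20 and 0.69). The share of all genes with 1 sign was not computed, so these signs are not read as a genotype difference. With the consecutive pairs as a block, no tested member passed either, with -0.19 for Dusp1 (SE 0.088, adjusted p = 0.470) and -0.20 for Ier2 (SE 0.087, adjusted p = 0.446) by limma. In the fit without the block, the 95% intervals of knockout over wild type ran from 0.639 to 1.45 times for Egr1, 0.592 to 1.28 times for Ier2, 0.580 to 1.32 times for Dusp1 and 0.778 to 1.51 times for Nr4a2. They were wider for Nr4a3 (0.467 to 1.74 times), Nr4a1 (0.420 to 2.33 times) and Egr2 (0.330 to 2.39 times).

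With Shh, the knockout arrays lay above both wild type arrays for Egr1, Nr4a1 and Nr4a3, as they did for 22.3% of all tested genes. For Nr4a1 the difference was 0.77 on the log2 scale (SE 0.67, 0.598 to 4.89 times, adjusted p = 0.852 by limma). Fitted on the 4 treated arrays alone, where the SE was 0.10, its adjusted p was 0.143. For Egr1 the difference was 0.38 (SE 0.32, 0.787 to 2.15 times, adjusted p = 0.844), and for Nr4a3 it was 0.19 (SE 0.52, adjusted p = 0.983). With the consecutive pairs as a block, the SE was 0.10 for Egr1 (adjusted p = 0.214) and 0.25 for Nr4a1 (adjusted p = 0.272) by limma. For Nr4a2 the represented probe set overlapped between genotypes. On 1455034_at, where treated wild type was at 438 and 386 and treated knockout at 618 and 705, the difference was 0.68 (SE 0.23, unadjusted p = 0.0159, adjusted p = 0.406 by limma over probe sets).

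**Figure D3:**
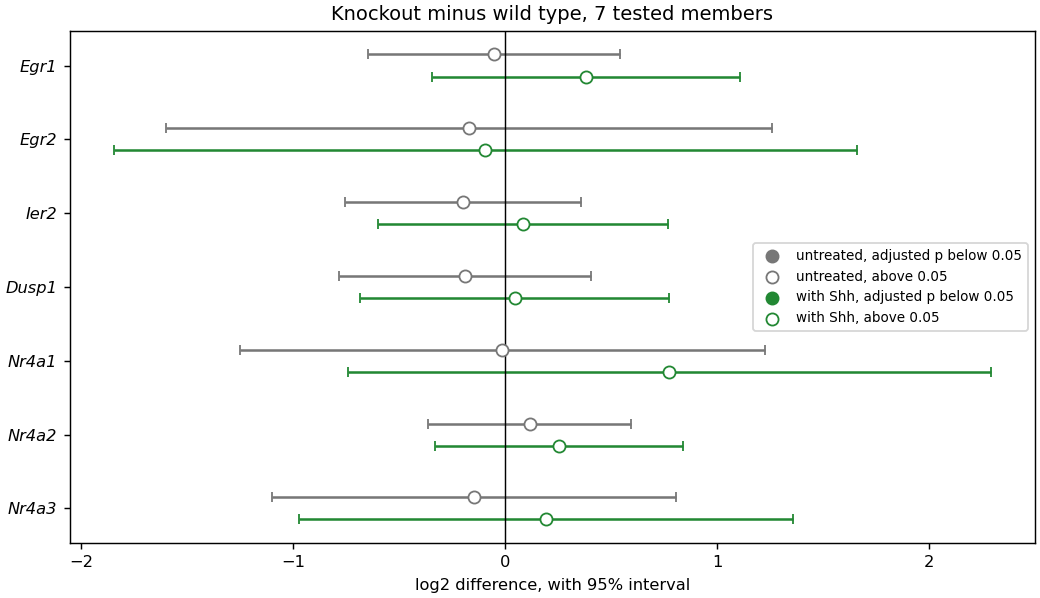
Log2 difference between Bmi1 knockout and wild type (horizontal axis) for the 7 tested members, with the 95% interval of the limma fit, in untreated cultures (grey) and with Shh (green); open points have an adjusted p above 0.05. All 14 points are open and all intervals include 0, the widest being those of Egr2 and Nr4a1.

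The response to Shh was also compared between genotypes. In this interaction 0 of the 7 members were called, and 0.00877% of all genes were (1 gene). The difference between the knockout and the wild type response was 0.43 for Egr1 (SE 0.41, 95% interval -0.50 to 1.37), 0.79 for Nr4a1 (SE 0.87, -1.17 to 2.74), 0.34 for Nr4a3 (SE 0.67, -1.16 to 1.84) and 0.28 for Ier2 (SE 0.39, -0.60 to 1.17) on the log2 scale. These intervals do not show that the genotypes respond alike. With the consecutive pairs as a block, the SE of the Egr1 difference was 0.13 (adjusted p = 0.571 by limma).

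Other genes of the same signalling were read from lists chosen by pathway. Of all tested genes, 14% were called higher and 19.8% lower with Shh in wild type, and 11% and 17% in knockout. The AP-1 factors, which pair Fos with Jun proteins and are induced by the same stimuli, had 6 tested genes of 7, with 1 called higher and 2 lower with Shh in each genotype. The log2 differences in wild type and knockout were -3.39 and -2.99 for Fosb, -2.21 and -2.48 for Junb, and 2.73 and 3.22 for Fosl2 (Fra-2), which follows Fos later in the response. For Fosb 1 of the 2 treated wild type arrays was at the floor, so its wild type difference is a lower limit. Fos and Jun had differences of -0.89 and -1.02 in wild type and -0.76 and -0.84 in knockout and were not called (adjusted p = 0.0939 to 0.235 by limma). The list's median was -0.96 in wild type and -0.80 in knockout.

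Of 21 tested genes among 24 other primary response genes, 4 were higher and 6 lower in wild type and 4 higher and 7 lower in knockout, with medians of 0.11 and -0.22. The log2 differences in wild type and knockout were -3.47 and -3.04 for Zfp36 (tristetraprolin, which speeds the decay of cytokine messages), -2.88 and -3.36 for Klf2 (a Krüppel-like factor that is also strong in endothelium) and -2.62 and -2.02 for Ccn1, a matrix protein. Klf4 fell by 2.28 on that scale in wild type, and Csrnp1 was at least 6.25-fold lower in knockout, where both treated arrays were at the floor. Among 13 feedback genes of the MAP kinase pathway, 6 were lower and 0 higher in wild type, and 4 lower and 2 higher in knockout. The lower genes included the ERK phosphatase Dusp6 (-1.99 and -1.88 in wild type and knockout), Dusp2 (-1.53 and -1.54) and the receptor signalling inhibitors Spry1 (-1.71 and -1.19) and Spry2 (-0.77 and -0.79).

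Of the 15 late activity-induced genes, 10 were tested, with 3 higher and 1 lower in wild type and 5 higher and 2 lower in knockout (medians 0.23 and 0.34). Vgf, a neuropeptide precursor induced by neurotrophins, rose by 1.46 and 2.06, and Syt4, a synaptotagmin, was lower (-1.22 and -1.02). Plk3 rose by 0.43 and 0.60, Rgs2 rose by 0.72 in wild type, and Scg2 rose by 0.92 in knockout. Plk2, a kinase of synaptic downscaling, was the 1 gene of this list called in the average genotype difference (0.55, SE 0.11, adjusted p = 0.0417 by limma).

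The 6 tested partners and corepressors of the members included 1 higher and 1 lower gene in each genotype. The counts of this list and of the upstream list below were near the share of all genes called, 33.8% in wild type and 28% in knockout. Rxra, a receptor that can pair with Nr4a1 and Nr4a2, rose by 0.64 and 0.56. Rxrg, which can take the same role, was lower, by at least 12.5-fold in wild type, where both treated arrays were at the floor, and with a log2 difference of -1.91 in knockout. Of the 20 tested genes upstream (serum response factor, CREB and MEF2 and the kinases and channels that feed them), 4 were higher and 4 lower in wild type and 3 higher and 2 lower in knockout. Elk3, a partner of serum response factor, was lower (-2.14 and -1.63), as was the L-type calcium channel gene Cacna1d (-1.79 and -1.72), and Mef2c and the kinase Rps6ka3 rose by 1.13 and 0.59 in wild type and by 1.00 and 0.64 in knockout.

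Markers of other cell types differed with Shh in the same arrays, where 19.8% of all tested genes were called lower in wild type and 17% in knockout. All 5 tested endothelial markers of 7 listed were lower in both genotypes, with log2 differences of -5.10 and -5.52 for Cldn5, and the summed signal of the list was 3579 to 4987 in untreated wild type, 4331 to 4503 in untreated knockout, 296 to 376 in treated wild type and 253 to 274 in treated knockout. The summed astroglial markers were at 24623 to 36227 untreated and 9390.1 to 12849.6 with Shh (5 of 6 tested lower in each genotype, the other one higher in knockout). The summed microglial markers were at 6557 to 11543 untreated and 3058 to 5189 with Shh (5 of 9 lower in each genotype). Interneuron and Purkinje cell markers were lower for 6 of 6 tested in wild type and 5 of 6 in knockout (sums of 15343 to 35912 and 5015 to 7717), fibroblast markers for 3 of 5 in each (2174 to 3145 and 982 to 1109), and oligodendrocyte markers for 4 of 6 and 3 of 6 (18967 to 25951 and 10083 to 14081). Among the latter, Pdgfra, a marker of oligodendrocyte precursors, was higher in both genotypes (0.62 and 0.47, adjusted p = 0.00829 and 0.0335 by limma). No marker of these lists was at the floor on all arrays. None of the 9 granule precursor markers was called, with sums of 45674 to 57089 untreated and 46153 to 49412 with Shh. The part of these cell types in the members' differences was not tested. Of 5 Shh target genes, 4 were called higher in each genotype, beside 14% of all genes in wild type and 11% in knockout. Among them were Gli1, which rose by 1.05 in wild type and 0.57 in knockout, and Ptch1, which rose by 0.98 and 0.92. Here too Shh and time in culture cannot be told apart.

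The genes whose profile over the 10 arrays was most like that of Egr1, by the root mean square difference of log2 signals centred on their own mean, were Slc38a5, an amino acid transporter (0.33), Cldn5, a tight junction protein of endothelium (0.36), and Slc39a8, a zinc transporter (0.38). Their log2 differences with Shh were -5.00, -5.10 and -4.56 in wild type and -4.70, -5.52 and -4.47 in knockout, beside -5.34 and -4.91 for Egr1. The genes nearest to Nr4a1 were Nfkbiz, a nuclear inhibitor of NF-kappaB (0.35), Fos (0.38) and Jun (0.41). Arc was not tested and got no such search. These likenesses describe 10 arrays in 4 groups.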

How the data were processed

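RNA was measured on 10 arrays. The authors deposited linear signal intensity from MAS5, and GCOS 1.2 was used per the submitters' processing notes. All arrays had a 2% trimmed mean of 500 and were used as deposited. Of 45101 probe sets, 64 were controls, 34945 named 1 gene, 932 several and 9160 none. Signals under the 25th percentile of all values were set to it (20.9) before log2. For each gene the probe set of highest mean over all arrays stood for it, and 11405 genes at or above the median of those means over all probe sets (log2 6.25, a signal of 76.1) were tested.

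The 4 group means were estimated on all 10 arrays in R 4.3.3 with limma 3.58.1 (6 residual and 3.11 prior degrees of freedom), two-sided, with Benjamini-Hochberg adjustment over all genes and a threshold of 0.05. The same fit was made over 22519 probe sets. The script was tested on simulated data. Errors are the model's SE. The labels call the cultures biological replicates without naming animals, so p-values reflect the spread among these 10 arrays alone. The treatment note of replicate 3 mentions Shh where applicable, and its title is that of an untreated culture. Consecutive numbers deviated together from their group means (correlations of 0.12 to 0.278 over genes). The treated pairs share the value 0.16, because deviations within a group of 2 arrays mirror each other. No other pairing was set beside these values. The pairing of consecutive numbers comes from the data alone, and the fit above carries no block.

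The members and lists were chosen with earlier results of these data known. Named were all members, per pathway list and comparison up to 4 called genes with the largest log2 difference, and the 3 genes most like Egr1 and Nr4a1. Of the marker and Shh target lists, only some called genes were named. Listed genes on the array under newer names were matched through RefSeq synonyms, and some listed genes were not analysed here. Alternatives changed the floor, filter, scaling, probe set choice, spread estimate, block and arrays.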

Additional observations from a re-analysis of the deposited data

How the results depend on the processing

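The counts of called members in the genotype, interaction and average comparisons were 0 under each alternative run. The count for Shh in wild type was 3 instead of 5 without the filter on dim genes, where Egr2 and Nr4a2 missed the threshold. The count in knockout was 4, where Egr2 missed it. In that fit more genes were tested and the SEs were larger, at 0.81 instead of 0.71 for Egr2 and 0.26 instead of 0.24 for Nr4a2. Leaving out 1 array at a time gave 3 to 7 members in wild type, with 3 without replicate 7 or 9 and 7 without replicate 5, and 3 to 5 in knockout, with 3 without replicate 10. With replicates 5 and 6 both left out, an alternative chosen after the data were seen, 7 members were called in wild type and 5 in knockout. The replicate block of consecutive numbers gave 6 members in wild type, adding Dusp1, and 5 in knockout, and it changed no other call of a member. Over the 862 values of single members under alternatives, 779 kept their direction and side of the threshold, 12 lost their call, 9 gained one, none of the called ones reversed, and 62 uncalled values changed sign. Egr1 (-5.55 to -5.00 in wild type, -5.10 to -4.62 in knockout), Ier2 (-2.49 to -1.93 and -2.20 to -1.70) and Nr4a3 (2.70 to 3.63 and 3.28 to 3.85) stayed called for Shh under every alternative that tested them. The number of arrays and, for Egr3, Egr4 and Arc, signal near the floor limit what can be read.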
